A study of Mus musculus with 20 samples.

Results

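Lipocalins are small secreted proteins with a barrel-shaped fold that carries hydrophobic molecules. They were examined here in livers that lack the fatty acid elongation enzyme HSD17B12 in hepatocytes. The members were all rows of the count table whose symbol is Mup plus a number or Lcn plus a number, together with Rbp4, Apod, Apom, Ptgds, Orm1, Orm2, Orm3, Ambp and C8g. The rule found 37 genes among 20914 in the count table, of which 22 are major urinary protein (Mup) genes and 15 are other lipocalins. Of these, 31 passed the filter on low counts and were tested.

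RNA-seq was made from the left lateral lobe of the liver of male mice 8 weeks old. The 10 knockout (KO) mice had the genotype HSD17B12lox/lox;Alb-CreCre/WT, in which the albumin promoter drives Cre recombinase in hepatocytes. The 10 wild-type (WT) mice had the genotype HSD17B12lox/lox;Alb-CreWT/WT, so that they carried the same floxed alleles without Cre, and the strain label of all 20 mice is LiB12cKO. Other liver cells of the KO mice keep the gene, and effects of Cre and of the lost enzyme cannot be told apart in this design. A lower level can come from fewer hepatocytes or from less RNA per hepatocyte, and bulk tissue cannot tell these apart.

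Major urinary proteins are made in the liver of adult male mice, pass into urine and carry volatile pheromones. Their genes lie in a single array on chromosome 4, and their transcription is known to depend on growth hormone acting through STAT5. Most copies in the middle of the array are almost identical and are called the central copies here (Mup1, Mup2, Mup7 to Mup19 and Mup22), while Mup3, Mup4, Mup5, Mup6, Mup20 and Mup21 have diverged. Mup20 encodes darcin, a pheromone of male urine that attracts females. The other lipocalins carry retinol (Rbp4), sphingosine-1-phosphate in lipoproteins (Apom) or bacterial siderophores (Lcn2), belong to the acute phase response (Orm1, Orm2, Orm3), make prostaglandin D2 (Ptgds) or serve in complement (C8g).

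The similarity of the copies decides which rows can be read singly. The 90 bases below are coding bases 61 to 150, counted on Mup7, from the transcript models of the GRCm38 annotation (GENCODE M21). They are shown to let a central copy be compared with Mup20 and Mup3, and capitals mark bases that do not match Mup7 in a pairwise alignment.
Mup7: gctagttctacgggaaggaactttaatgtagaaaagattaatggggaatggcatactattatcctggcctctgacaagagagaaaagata
Mup17: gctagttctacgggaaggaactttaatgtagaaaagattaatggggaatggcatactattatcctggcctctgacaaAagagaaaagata
Mup20: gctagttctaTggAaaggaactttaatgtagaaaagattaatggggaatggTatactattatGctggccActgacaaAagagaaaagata
Mup3: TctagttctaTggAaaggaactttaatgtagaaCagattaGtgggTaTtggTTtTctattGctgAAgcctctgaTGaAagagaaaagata
In this stretch Mup17 had 1 base that did not match Mup7, Mup20 had 6, and Mup3 had 16 with 4 gap columns in its alignment. Over the whole coding sequence the 16 central copies were 98.2% to 99.8% identical to each other (median 99.0% over 120 pairs). Mup20 was 90.1% to 91.3% identical to the central copies and Mup3 82.6% to 84.0%. The 3 low-level genes Mup4, Mup5 and Mup6 were 88.1% to 90.6% identical to them. Of all windows of 100 bases in a transcript, the share found in no other annotated transcript was 97.1% for Mup3, 95.5% for Mup21 and 61.2% for Mup20. It was 40.6% for Mup17, at most 22.5% for the other central copies, and 0 for Mup19 and Mup22. Fragments that map to several places were counted by the authors, so the split between central copies is uncertain and their sum per mouse is given beside single rows.

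Hsd17b12 itself averaged 47.9 ± 2.48 CPM (fragment counts scaled to the TMM effective library) in KO livers and 151 ± 18.5 CPM in WT livers (mean ± SD of 10 mice each), with every KO mouse below every WT mouse. Its log2 fold change was -1.66 (SE 0.0649; by edgeR, adjusted p = 3.30e-14). Each mouse had 16693195 to 29124124 fragments assigned to a gene. As background for the counts below, 28.4% of the 13678 tested genes had a higher and 30.4% a lower level in KO at an adjusted p under 0.05 by edgeR's quasi-likelihood test (3880 and 4163 genes). Adjusted p-values of fold changes are from this test unless another is named. This split depends on scaling: with library size alone, without TMM factors, 9354 genes were higher and 919 lower, and the median log2 fold change of all genes was 0.44 against -0.021 with TMM factors, a shift of 0.47. Alb, albumin, a defining product of hepatocytes, averaged 35516 ± 5036 CPM in KO livers and 59310 ± 9674 CPM in WT livers. Mouse KO_391 had far more Mup RNA than the other KO mice, and mouse WT_441 had the least of the WT mice, so results that rest on them are given with and without them.

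Mup RNA was lower in KO livers as a whole. All Mup rows together held a median of 1.74% of assigned fragments in KO mice (0.564% in KO_434 to 7.63% in KO_391), against a median of 10.7% in WT mice (2.26% in WT_441 to 16.7%). In all KO mice but KO_391 the share was at most 2.40%, and in all WT mice but WT_441 it was at least 4.44%, so the genotypes overlapped through these 2 mice alone. The mean share was 2.14 ± 2.03% in KO and 10.2 ± 5.04% in WT (mean ± SD of 10 mice each; two-sided permutation test p = 0.00057 with 100000 resamples, adjusted p = 0.000833 over 19 library and Mup measures). The Mup sum had a log2 fold change of -2.70 (SE 0.49; by edgeR, adjusted p = 8.67e-05), which is 15.4% of the WT level. Without KO_391 the log2 fold change was -3.22, and without WT_441 it was -2.82.

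**Figure D1:**
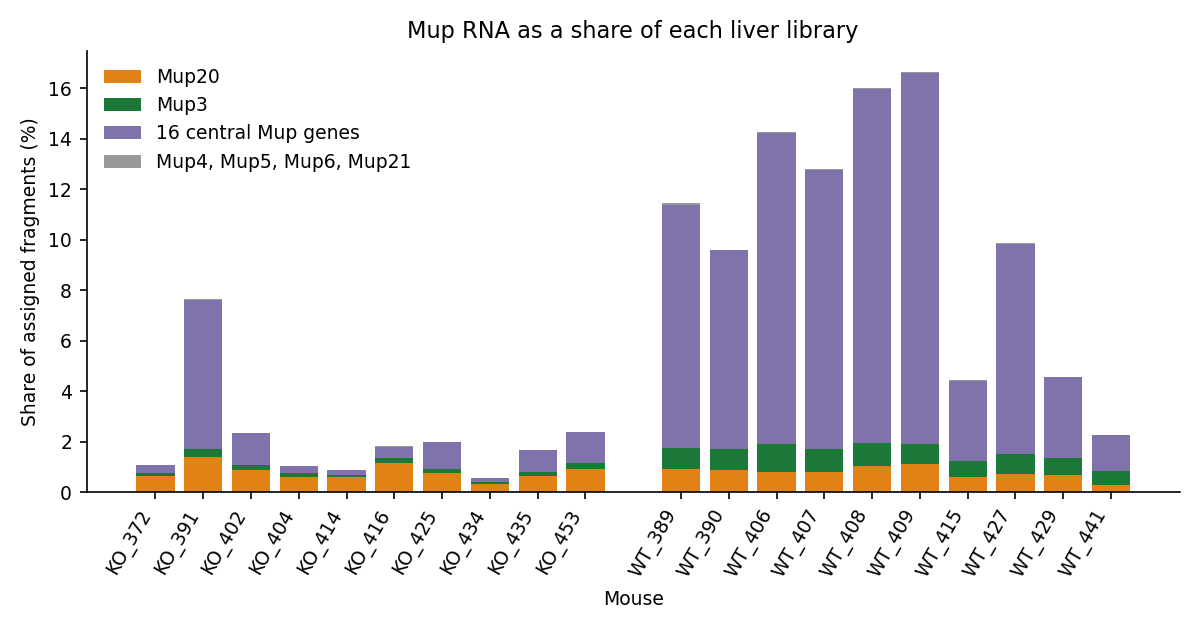
Each bar is 1 mouse, KO mice on the left and WT mice on the right, and its height is the share of assigned fragments in Mup rows (%), split by colour into Mup20, Mup3, the 16 central copies and the remaining rows. The central copies make up most of the WT bars, whereas the Mup20 segment has a similar height in KO and WT mice (0.788% and 0.778% on average).

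The central copies carried most of the loss. Their sum averaged 10720 ± 16659 CPM in KO livers and 104125 ± 60187 CPM in WT livers (mean ± SD of 10 mice each). It ranged from 1451 CPM to 56910 CPM in KO mice, with a median of 5478 CPM, and from 14465 CPM to 186767 CPM in WT mice, with a median of 106670 CPM. All KO mice except KO_391 lay below the lowest WT mouse. The log2 fold change of the central sum was -3.28 (SE 0.68; by edgeR, adjusted p = 0.000399), -4.18 without KO_391 and -3.41 without WT_441.

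Each of the 16 central rows was lower in KO by the edgeR test, with log2 fold changes from -4.64 to -2.33 (median -3.23). Of all 22 Mup rows 21 were lower. Of all 31 tested members 26 were lower and 3 higher, beside 30.4% lower and 28.4% higher among all genes. The 16 central rows share fragments and are not independent, so these counts do not compare directly with shares of all genes. Of the 6 diverged Mup rows 5 were lower, and of the 9 tested members outside the Mup genes 5 were lower and 3 higher. Mup7 (Entrez gene 100041658; mm10 chromosome 4, 60066469 to 60070475, minus strand) had the largest decrease among the rows: its median was 99.1 CPM in KO mice (17.4 to 2933 CPM) and 10761 CPM in WT mice (1417 to 15429 CPM), with a log2 fold change of -4.64 (SE 0.93; by edgeR, adjusted p = 0.000279). All KO mice except KO_391 lay below every WT mouse for Mup7, and without KO_391 the log2 fold change was -6.37. Mup15, Mup12 and Mup1 followed with -4.25, -4.09 and -3.92, and without KO_391 these had -5.61, -5.64 and -5.39. At the other end Mup22, of which no window is unique, had -2.33, and Mup10 had -2.68 (-2.84 and -3.25 without KO_391). The row of Mup17, the central copy with the most unique sequence, had -3.65 (-5.44 without KO_391), with a median of 85.5 CPM in KO mice (22.0 to 2671 CPM) and 4057 CPM in WT mice (117 to 10450 CPM). Without KO_391 the central rows ranged from -6.37 to -2.84.

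**Figure D2:**
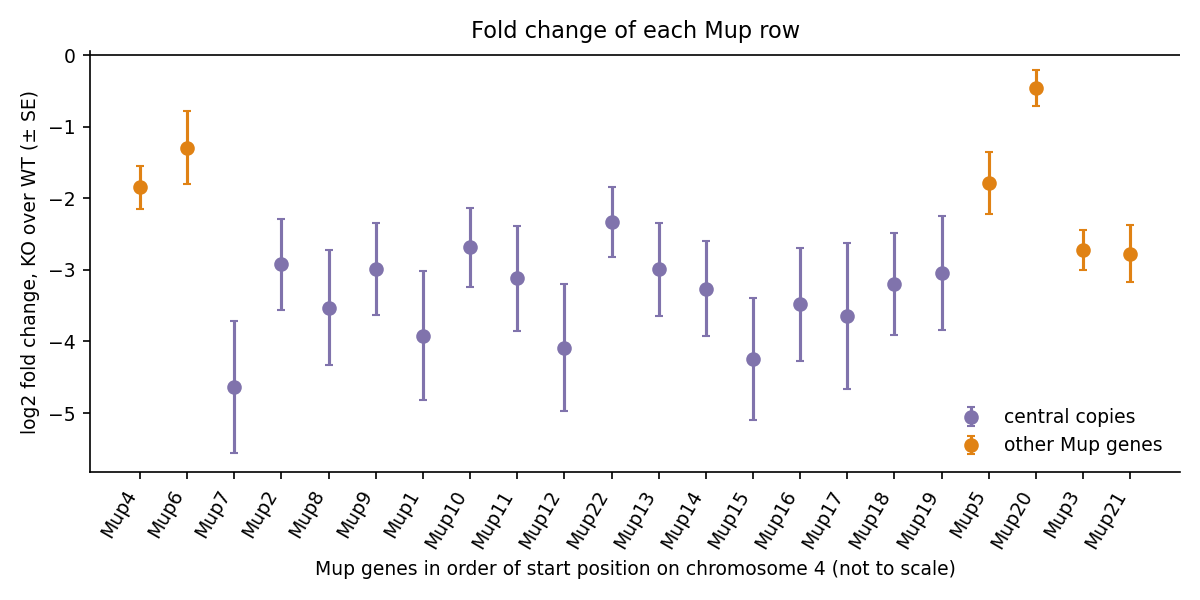
Points are the log2 fold change of KO over WT for each of the 22 Mup rows, bars are ± SE of the fit, and genes stand in the order of their start on chromosome 4. Central copies lie between -4.64 and -2.33, and Mup20, near the right end of the array, lies closest to 0 at -0.46.

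Among the diverged genes, Mup3 and Mup21 were lower as well, and their rows rest almost wholly on unique sequence. Mup3 (Entrez gene 17842; chromosome 4, 62083476 to 62087312, minus strand) had a median of 1449 CPM in KO mice (444 to 3087 CPM) and 10013 CPM in WT mice (5578 to 13734 CPM). Every KO mouse, KO_391 included, lay below every WT mouse. The log2 fold change was -2.72 (SE 0.28; by edgeR, adjusted p = 5.63e-08), and -2.88 without KO_391. Complete separation of this kind, KO below WT, was seen in 6.12% of all tested genes and in 4 of the 31 tested members (Mup3, Ambp, C8g and Ptgds). Mup21 had 52.9 ± 39.6 CPM in KO and 361 ± 146 CPM in WT (mean ± SD of 10 mice each; log2 fold change -2.77, adjusted p = 8.13e-06).

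Mup4, Mup5 and Mup6 were expressed at much lower levels. Mup4, which in mice is expressed outside the liver as well, had 0.470 ± 0.238 CPM in KO and 1.70 ± 0.723 CPM in WT (mean ± SD of 10 mice each; log2 fold change -1.84, adjusted p = 1.73e-05). Mup5 had 0.564 ± 0.599 CPM in KO and 1.97 ± 0.902 CPM in WT (log2 fold change -1.78, adjusted p = 0.00135). Mup6 had 5.67 ± 5.58 CPM in KO and 13.9 ± 8.72 CPM in WT (log2 fold change -1.29, adjusted p = 0.0371). The Mup6 call depends on single mice and settings: leaving out any 1 of 13 mice, scaling by library size or dropping the filter put its adjusted p between 0.0515 and 0.116, whereas without KO_391 it was 0.00428.

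Mup20 was the only Mup row that the test did not call lower. Mup20 (Entrez gene 381530; chromosome 4, 62050234 to 62054117, minus strand) had a median of 5968 CPM in KO mice (2661 to 13359 CPM) and 9669 CPM in WT mice (2892 to 14096 CPM). The ranges overlapped, with 1 KO mouse below the lowest WT mouse, WT_441. The next WT mouse was WT_415 at 6390 CPM, and KO_372, KO_404, KO_414, KO_434 and KO_435 lay below it. The log2 fold change was -0.46 (SE 0.25; by edgeR, adjusted p = 0.125), and it was 0.017 when libraries were scaled by size alone. The call depends on single mice and on the method: the adjusted p was 0.0355 without KO_391, 0.0315 without WT_441 and 0.00997 with limma-voom and quality weights, and the authors' deposited table gives a log2 fold change of -0.47 with a false discovery rate of 0.0338. As a share of assigned fragments Mup20 stood at 0.788 ± 0.304% in KO and 0.778 ± 0.231% in WT (mean ± SD of 10 mice each; permutation test p = 0.94). The same share of Mup3 was 0.166 ± 0.0786% in KO and 0.800 ± 0.163% in WT (permutation test p = 1e-05, the smallest that 100000 resamples can give).

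Mup20 formed a larger part of Mup RNA in KO livers. It held a median of 47.7% of Mup fragments in KO mice (18.2% in KO_391 to 68.8% in KO_414) and 7.60% in WT mice (5.56% to 15.01%). Every KO mouse lay above every WT mouse, KO_391 included. The means were 47.6 ± 16.1% in KO and 9.01 ± 3.39% in WT (mean ± SD of 10 mice each), a difference of 38.6 percentage points (permutation test p = 1e-05, the smallest possible). The ratio of Mup20 to the central sum was 0.18 ± 1.16 on the log2 scale in KO and -3.23 ± 0.67 in WT, and that of Mup20 to Mup3 was 2.31 ± 0.39 in KO and -0.091 ± 0.39 in WT, both without overlap between genotypes (permutation test p = 1e-05 for each). These ratios do not depend on the scaling of libraries, and they were chosen after the Mup20 values had been seen. Mup3, by contrast, held 9.33 ± 2.49% of Mup fragments in KO and 10.2 ± 5.85% in WT (mean ± SD of 10 mice each; permutation test p = 0.723). Its medians had the other order, 9.44% in KO and 7.98% in WT. The WT mean is raised by WT_441 at 24.2%, against 14.3% in the next WT mouse. Since 61.2% of the windows of the Mup20 transcript are unique, part of its row may hold fragments of other copies, and how large that part is was not tested.

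**Figure D3:**
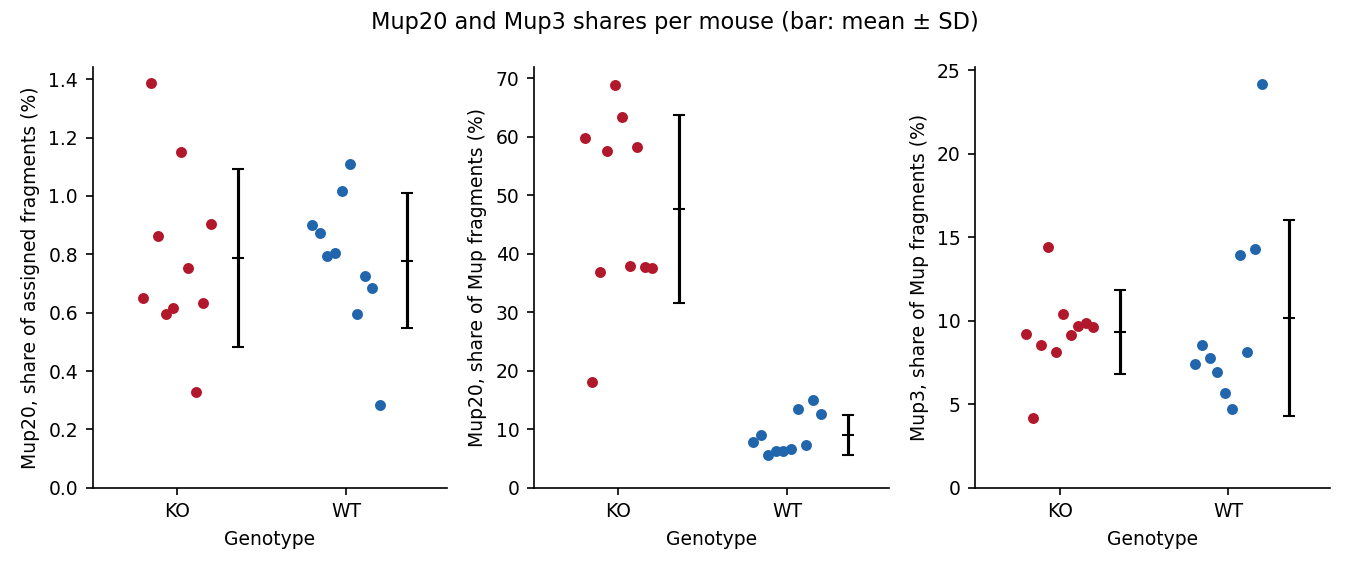
Points are single mice (KO left, WT right) and bars are mean ± SD, for Mup20 as a share of assigned fragments, Mup20 as a share of Mup fragments and Mup3 as a share of Mup fragments (%). Mup20 averages 0.788% in KO and 0.778% in WT in the first panel and is fully separated in the second, and Mup3 overlaps in the third.

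The order of the members by level changed with it. Per length, in the deposited RPKM values (CPM per kilobase of gene length), Mup20 was the highest lipocalin in KO livers with 7668 ± 3357 RPKM, where Mup22, Rbp4 and Mup3 followed with 1626 ± 1746, 1593 ± 187 and 1590 ± 841 RPKM (mean ± SD of 10 mice). These 3 did not differ beyond their spread, and Mup20 lay above them. In WT livers Mup14 came first with 12311 ± 6819 RPKM, and Mup20 and Mup3 followed with 10517 ± 3579 and 10484 ± 2622 RPKM (mean ± SD of 10 mice), none of which differed beyond their spread. Mup7 had rank 19 among the tested members in KO livers with 386 ± 867 RPKM and rank 4 in WT livers with 9595 ± 4638 RPKM (mean ± SD of 10 mice each). Without KO_391 Mup7 had 113 ± 100.3 RPKM and rank 23 in KO livers, Mup20 stayed first with 6846 ± 2256 RPKM, and Rbp4, Ambp, Mup3 and Mup22 followed with 1546 ± 121, 1535 ± 191, 1389 ± 584 and 1115 ± 697 RPKM (mean ± SD of 9 mice).

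Of the diverged copies, Mup3, Mup20 and Mup21 were set against the central sum within each genotype. In KO mice log2 CPM of Mup3 followed the central sum with Pearson's r of 0.90 and Spearman's rho of 0.94 (n = 10 mice; permutation adjusted p = 0.00156 and 0.00364 over 26 relations), and r was 0.85 without KO_391 and KO_434, the mice farthest from the median. In WT mice the values for Mup3 were 0.94 and 0.85 (permutation adjusted p = 0.00381 and 0.0207), with r = 0.80 without WT_415 and WT_441. Mup20 followed the central sum as well, with r of 0.81 and rho of 0.84 in KO mice (permutation adjusted p = 0.0171 and 0.0207), but r was 0.53 without the same KO mice. In WT mice r was 0.93 and rho 0.84 for Mup20 (permutation adjusted p = 0.00156 and 0.0207), and r was 0.79 without the farthest WT mice. For Mup21 r was 0.75 and rho 0.53 in KO mice (permutation adjusted p = 0.0308 and 0.210), a relation that rested on KO_391 and KO_434 since r was 0.29 without them. In WT mice r was 0.94 and rho 0.78 for Mup21 (permutation adjusted p = 0.00462 and 0.0345), with r = 0.86 without the farthest mice. Hsd17b12 itself followed the central sum in WT mice (r = 0.76, rho = 0.79, permutation adjusted p = 0.0226 and 0.0345; r = 0.85 without the farthest mice). In KO mice it had r = 0.18 and rho = 0.042 (permutation adjusted p = 0.714 and 0.946; r = -0.074 without the farthest mice), and the difference between genotypes was not tested. The relations were chosen with the data known. Both sides of each relation, here and below, are divided by the same TMM effective library of a mouse. In WT mice the TMM factor was lowest in WT_409 (0.788), with the most Mup RNA, and highest in WT_441 (0.982), with the least. The part of this shared scaling in the relations was not tested.

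**Figure D4:**
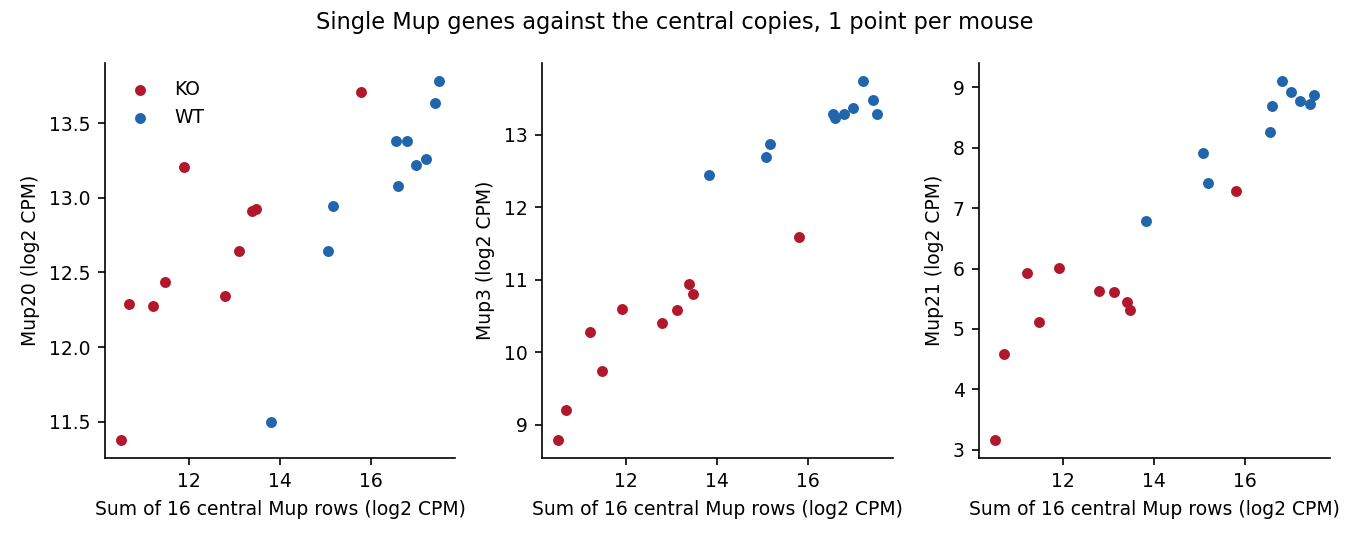
Each point is 1 mouse (KO red, WT blue). The x axis is the sum of the 16 central rows and the y axes are Mup20, Mup3 and Mup21, all in log2 CPM. Within a genotype Mup3 rises with the central sum (r = 0.90 in KO and 0.94 in WT), and the KO and WT points of Mup20 share 1 range while those of Mup3 do not overlap.

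The genes outside the family whose variation between mice was most like that of the Mup sum were Cyp2d40, Selenbp2, Cyp2d9, C6, Hao1 and Abcg2. After centring each genotype, their log2 CPM had a Pearson r of 0.93, 0.91, 0.91, 0.91, 0.90 and 0.90 with the sum over 20 mice, the highest of 10797 genes ranked, and this is a description without a test. Cyp2d40 and Cyp2d9 are cytochromes P450, Selenbp2 a selenium-binding protein, C6 a complement component, Hao1 a peroxisomal hydroxyacid oxidase and Abcg2 an exporter. Likeness between mice did not go with an equal fold change between genotypes: Selenbp2 had a log2 fold change of -2.45 and Cyp2d40 of -1.84, whereas C6 and Abcg2 had -0.34 and -0.12 (adjusted p = 0.0728 and 0.406). The Cyp2d genes have close copies and may share fragments.

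Of the other lipocalins, 5 of the 9 tested were lower in KO, 3 were higher and Apom was not called. Beside them, 30.4% of all genes were lower and 28.4% higher, so the number higher is near that of all genes. Ptgds, lipocalin-type prostaglandin D synthase (Entrez gene 19215; chromosome 2, 25466712 to 25469749, minus strand), was the most reduced of them. Its median was 0.518 CPM in KO mice (0.116 to 1.16 CPM) and 5.91 CPM in WT mice (1.88 to 11.9 CPM). No KO mouse reached the lowest WT mouse. The log2 fold change was -3.46 (SE 0.38; by edgeR, adjusted p = 1.25e-07), from 135 fragments in all KO mice and 1180 in all WT mice. C8g, the gamma chain of complement C8 (Entrez gene 69379; chromosome 2, 25498656 to 25500506, minus strand), had a median of 152 CPM in KO mice (99.3 to 238 CPM) and 456 CPM in WT mice (340 to 599 CPM). The genotypes did not overlap for C8g, and its log2 fold change was -1.52 (SE 0.12; by edgeR, adjusted p = 1.17e-09).

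The abundant plasma carriers were reduced by less. Rbp4, the retinol carrier of plasma (Entrez gene 19662; chromosome 19, 38116620 to 38125321, minus strand), had a median of 2021 CPM in KO mice (1732 to 2616 CPM) and 3588 CPM in WT mice (2550 to 3926 CPM). Only KO_391 lay above the lowest WT mouse. The log2 fold change was -0.74 (SE 0.090; by edgeR, adjusted p = 4.65e-07), and -0.27 with library size scaling, where it still passed the test. Ambp, the precursor of alpha-1-microglobulin and bikunin (Entrez gene 11699; chromosome 4, 63143279 to 63154142, minus strand), had 1871 ± 233 CPM in KO and 2743 ± 169 CPM in WT (mean ± SD of 10 mice each), without overlap between genotypes. Its log2 fold change of -0.55 (adjusted p = 1.88e-06) was -0.083 with library size scaling (adjusted p = 0.386), so that the call depends on the scaling. Apom had 145 ± 18.4 CPM in KO and 161 ± 35.4 CPM in WT (mean ± SD of 10 mice each; log2 fold change -0.15, adjusted p = 0.253), and with library size scaling it was 0.30 with an adjusted p of 0.0394. Chosen after their values were seen, the relations of Apom and C8g with the central Mup sum were as follows. Among WT mice Apom was lower where the central Mup sum was higher (r = -0.73, rho = -0.77, permutation adjusted p = 0.0308 and 0.0376 over the 26 relations, r = -0.70 without the farthest mice). Among KO mice r was 0.62 and rho 0.72 (permutation adjusted p = 0.0842 and 0.0577), r was 0.53 without the farthest mice, and the difference between genotypes was not tested. For C8g r with the central sum was 0.82 in KO and 0.84 in WT (permutation adjusted p = 0.0171 and 0.00952), with rho of 0.85 and 0.65 (0.0207 and 0.0966), and without the farthest mice r was 0.50 and 0.57.

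The 3 orosomucoid genes, which encode alpha-1-acid glycoproteins and lie side by side on chromosome 4, did not move together. Orm2 (Entrez gene 18406; chromosome 4, 63362449 to 63365877, plus strand) had a median of 67.3 CPM in KO mice (19.3 to 96.3 CPM) and 17.8 CPM in WT mice (9.89 to 24.4 CPM), and 9 of the 10 KO mice lay above the highest WT mouse. Its log2 fold change was 1.92 (SE 0.24; by edgeR, adjusted p = 1.14e-06). Orm3 had 11.5 ± 6.75 CPM in KO and 4.70 ± 3.68 CPM in WT (mean ± SD of 10 mice each; log2 fold change 1.30, adjusted p = 0.0354). The Orm3 call was lost when any 1 of 7 mice was left out (adjusted p 0.0520 to 0.0729), without the filter (0.0552) and with assigned fragments as a covariate (0.0603). Orm1, the most abundant of the 3 with 856 ± 114 RPKM in KO livers, had 658 ± 87.4 CPM in KO and 857 ± 173 CPM in WT (mean ± SD of 10 mice each). Its log2 fold change of -0.38 (adjusted p = 0.00431) was 0.098 with library size scaling (adjusted p = 0.362), so its direction depends on the scaling, while those of Orm2 and Orm3 do not. Coding sequences of Orm1 and Orm2 were 89.9% identical, and 93.0% of the windows of each were unique.

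Lcn2, which binds the siderophores of bacteria and is induced in injured or inflamed liver (Entrez gene 16819; chromosome 2, 32384637 to 32387739, minus strand), had a median of 28.0 CPM in KO mice (11.2 to 51.1 CPM) and 9.85 CPM in WT mice (2.73 to 22.5 CPM). Of the KO mice 5 lay above the highest WT mouse, and the others overlapped with WT. The log2 fold change was 1.42 (SE 0.37; by edgeR, adjusted p = 0.00277), 1.55 without KO_391 and 1.30 without WT_441. Neutrophils also make Lcn2. Of 11 neutrophil markers 2 passed the filter, S100a8 and S100a9, and neither was called (log2 fold change 0.28 and 0.057, adjusted p = 0.626 and 0.909). The summed neutrophil markers ranged from 1.12 to 6.82 CPM in KO and from 0.672 to 5.23 CPM in WT, and Ly6g, which defines these cells, was near 0 (0.00922 CPM in KO and 0 in WT on average). Most of the markers were too low to be tested, and the part of neutrophils in the Lcn2 values was not tested.

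**Figure D5:**
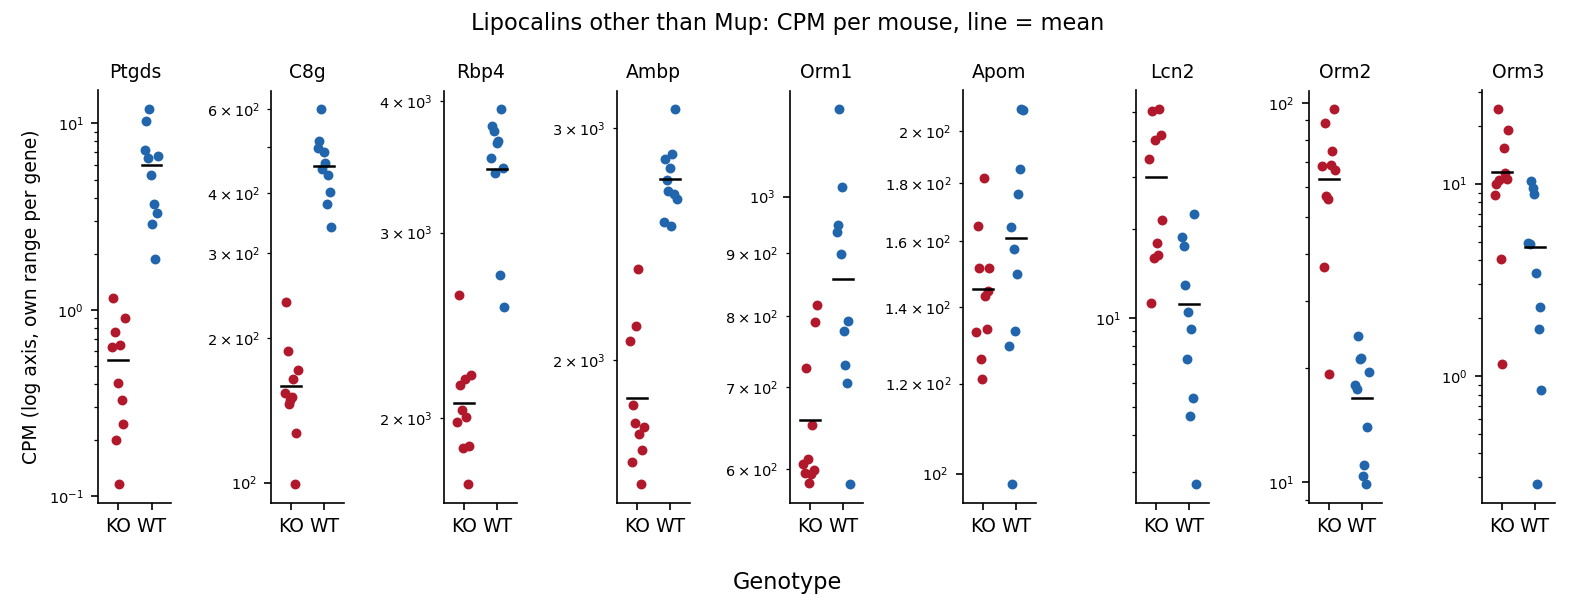
Points are CPM of single mice on log axes, each gene with its own range, KO left and WT right, and lines are means. Ptgds, C8g and Ambp are separated with KO below WT, Orm2 lies higher in 9 of 10 KO mice, and Apom overlaps throughout.

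The 6 members that did not pass the filter on low counts had few fragments. Lcn8 had 41 in all KO mice and 12 in all WT mice, and Lcn12 had 38 in KO and 92 in WT. Lcn5 had 6 in KO and 1 in WT, Lcn6 had 1 in KO and 2 in WT, and Lcn4 had 0 in KO and 3 in WT. Apod, a carrier of arachidonic acid and steroids, had 1 in KO and 27 in WT, 24 of them in a single WT mouse. Lcn12 ranged from 0 to 0.280 CPM in KO mice and from 0.335 to 1.03 CPM in WT mice, so every KO mouse lay below every WT mouse. In the edgeR test without a filter on low counts Lcn12 had a log2 fold change of -1.63 (adjusted p = 0.00236) and Apod one of -3.75 (adjusted p = 0.00737), the second resting on that single WT mouse. The other 4 did not pass that test (adjusted p from 0.110 to 0.536), and with so few fragments a lack of difference is not shown.

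Proteins that work with these lipocalins were mostly lower in KO. Of 15 tested partners and receptors 11 were lower and 0 higher (15 of 18 passed the filter; median log2 fold change -0.73, against -0.021 over all genes). Over all genes 30.4% were lower and 28.4% higher. Ttr, which binds Rbp4 in plasma, averaged 2842 ± 665 CPM in KO and 6622 ± 685 CPM in WT (mean ± SD of 10 mice each; log2 fold change -1.22, adjusted p = 1.11e-08). Itih1 and Itih3, heavy chains that are joined to bikunin, had log2 fold changes of -0.70 and -1.09, and C8a, the alpha chain of complement C8, had -1.20. With library size scaling 8 were lower and 3 higher, beside 919 lower and 9354 higher among all genes.

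Among genes known to control Mup transcription, or to lie in the same growth hormone pathway, 12 of 20 tested were lower and 2 higher (median -0.45). The shares over all genes were 30.4% lower and 28.4% higher. Ghr, the growth hormone receptor, averaged 248 ± 51.7 CPM in KO and 547 ± 47.4 CPM in WT (mean ± SD of 10 mice each; log2 fold change -1.14, adjusted p = 3.55e-09). Its target Igf1 and the IGF carrier Igfals had -1.12 and -1.79. With library size scaling 5 genes of the list were lower and 5 higher and the median was 0.0069, so the direction of this list depends on the scaling. That scaling gave 919 lower and 9354 higher among all genes. Chosen after their values were seen, Stat5b had -0.47 (-0.011 with library size scaling), the Mup repressor Bcl6 had -1.14 (-0.67), and the regulator Zhx2 had -0.025 with an adjusted p of 0.805.

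Acute phase genes did not follow Orm2, Orm3 and Lcn2. Of 20 tested 14 were lower and 1 higher (median -0.82), beside 30.4% lower and 28.4% higher among all genes. The lower ones included the fibrinogen chains Fgg, Fgb and Fga with -1.05, -0.98 and -0.88 and the serum amyloid Saa4 with -2.92. The 1 that was higher was Il1rn, the interleukin-1 receptor antagonist, with 1.09, named after its value was seen. With library size scaling 10 were lower and 4 higher, beside 919 lower and 9354 higher among all genes. Of 14 retinoid genes 4 were higher and 3 lower (median 0.22), beside 28.4% higher and 30.4% lower among all genes, which is no result about this list. The dehydrogenases Rdh16 and Rdh10 and the retinol esterifying enzyme Lrat had 1.37, 0.47 and 1.14, and the reductase Dhrs3 had -0.60. With library size scaling 9 of the 14 were higher and 1 lower, beside 9354 higher and 919 lower among all genes. Of 5 further lipocalins outside the naming rule, 1 was in the count table: Obp2a, an odorant-binding protein, had 0.133 ± 0.160 CPM in KO and 6.55 ± 6.73 CPM in WT (mean ± SD of 10 mice each; log2 fold change -5.55, adjusted p = 5.48e-06).

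Markers of several liver cell types differed between genotypes alongside these results. The counts below stand beside 28.4% higher and 30.4% lower among all genes. Of 12 hepatocyte markers 11 were lower and 0 higher in KO (median -0.82; summed level 59572 to 75372 CPM in KO and 87717 to 129169 CPM in WT), including Ahsg, Asgr1, Fgb and Serpinc1 with -1.13, -0.62, -0.98 and -0.50. With library size scaling 6 were lower and 1 higher. Of 12 macrophage markers 10 were higher and 0 lower (median 1.15; 330 to 608 CPM in KO and 144 to 297 CPM in WT), including Lyz2, Cd68, Gpnmb and Cd5l with 1.31, 1.43, 4.47 and 1.09. Of 10 stellate cell markers 7 were higher and 0 lower, with Lum, Dcn, Col1a1 and Col3a1 at 1.26, 0.57, 1.42 and 1.22, and their sum ranged from 284 to 527 CPM in KO and from 164 to 305 CPM in WT. Of 8 endothelial markers 4 were higher and 0 lower, with Cdh5, Fcgr2b, Pecam1 and Lyve1 at 0.70, 0.45, 0.37 and 0.85 (sum 237 to 299 CPM in KO and 158 to 301 CPM in WT). Of 7 tested cholangiocyte markers 2 were higher, Epcam and Spp1, and 2 lower (sum 65.6 to 205 CPM in KO and 40.7 to 79.0 CPM in WT). These calls are near the shares of all genes, which is no result about the cholangiocyte list. With library size scaling 11 macrophage, 8 stellate, 8 endothelial and 3 cholangiocyte markers were higher and 0 lower. Most genes were higher under that scaling (9354 higher and 919 lower among all genes). The part of these shifts in the values of the lipocalins was not tested; the median log2 fold change was -3.23 for the central Mup rows and -0.82 for the hepatocyte markers.

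Promoters were compared between members that fell and members that rose. The 250 bases before the transcription start are shown for a central copy, for Mup3, and for Orm2 and Lcn2, which were higher in KO, from RefSeq on build GRCm38.p6 and in the direction of transcription. Capitals mark the motifs TATATAA and TTGCNNAA, of which TTGCNNAA is a core of sites for C/EBP factors.
Mup17, chr4:61595833-61596082, minus strand: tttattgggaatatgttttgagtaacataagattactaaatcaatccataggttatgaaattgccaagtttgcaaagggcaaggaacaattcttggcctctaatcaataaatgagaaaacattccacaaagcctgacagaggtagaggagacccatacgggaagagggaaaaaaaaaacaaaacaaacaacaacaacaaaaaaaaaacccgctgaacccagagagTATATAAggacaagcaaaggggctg
Mup3, chr4:62087318-62087567, minus strand: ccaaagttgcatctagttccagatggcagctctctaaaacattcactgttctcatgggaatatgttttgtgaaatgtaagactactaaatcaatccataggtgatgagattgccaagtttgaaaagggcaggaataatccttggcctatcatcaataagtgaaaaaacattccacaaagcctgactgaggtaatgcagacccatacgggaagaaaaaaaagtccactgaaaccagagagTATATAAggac
Orm2, chr4:63362199-63362448, plus strand: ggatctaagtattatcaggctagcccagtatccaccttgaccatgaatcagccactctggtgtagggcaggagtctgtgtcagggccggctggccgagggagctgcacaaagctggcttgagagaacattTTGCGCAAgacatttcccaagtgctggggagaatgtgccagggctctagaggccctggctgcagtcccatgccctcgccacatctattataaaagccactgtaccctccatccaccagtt
Lcn2, chr2:32387740-32387989, minus strand: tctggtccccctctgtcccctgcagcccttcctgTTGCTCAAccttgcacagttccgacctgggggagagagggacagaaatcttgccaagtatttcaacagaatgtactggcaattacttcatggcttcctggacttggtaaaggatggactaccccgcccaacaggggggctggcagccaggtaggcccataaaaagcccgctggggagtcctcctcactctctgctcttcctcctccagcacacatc
The RefSeq table held promoters, of 300 bases with 50 after the start, for 28 of the 37 members and 14 of the 22 Mup genes. On both strands TATATAA was found in 13 of the 14 Mup promoters, all but that of Mup7, and in 3.24% of 32851 promoters of the same length. The Mup7 window ends within bases that in the Mup17 promoter lie before TATATAA. It may therefore stop short of the motif, and a lack of it in Mup7 is not shown. The STAT core TTCNNNGAA was in 0 of the 14 (8.30% of all promoters), and TTGCNNAA was in 0 of the 14 (10.8% of all promoters). Identity between Mup promoters ran from 36.3% (Mup7 and Mup10) to 98.0% (Mup15 and Mup17). As promoters of related copies the 14 are not independent observations. Outside the Mup genes TTGCNNAA was found for Orm2, Orm3, Lcn2, Lcn8 and 1 of the 2 promoters of Rbp4. No match of a motif overlapped a match of another. These are letter matches in a short window and say nothing of which factors bind there or farther away.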

How the data were processed

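Total RNA of 20 livers was sequenced, and genotype was taken from the labels. The members and gene lists were chosen with earlier results of these data known. The main deposited table holds raw counts of fragments, with Entrez gene IDs. By its name it was made with Rsubread on the RefSeq genes of mm10, and the authors' comparison by its name with ROTS. HISAT2 2.0.5 and DESeq2 stand in the submitters' processing notes. No source used here gives the strand setting. The deposited fragment statistics set aside 0 multi-mapping fragments, and genes at 0 in all mice are absent from the counts, Lcn3, Lcn9, Lcn10 and Lcn11 among them. The authors' normalized signal equalled the CPM over TMM effective library size (largest relative deviation 4.98e-15), and the deposited RPKM is the same signal divided by gene length. The authors' comparison holds log2 fold changes (KO over WT), p-values and false discovery rates, per the file headers. In the fragment statistics 21 columns were not used.

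Counts were fitted with edgeR 4.0.16 in R 4.3.3 (TMM factors, filterByExpr with minimum count 10 and minimum total 15, robust quasi-likelihood F test, Benjamini-Hochberg over 13678 genes, threshold 0.05). Genes left out held 0.0851% of fragments, and 620 genes have no symbol. Beside single rows, the Mup rows were replaced by their sum per mouse, and separately the central rows by theirs. CPM values are TMM-scaled, log2 CPM has a prior count of 2, and SE belongs to the fitted coefficient. For shares and ratios, and for correlations, permutation tests were two-sided and drew 100000 resamples. No pair of mice within a genotype agreed within sampling noise (chi-square of 12.8 to 252 per degree of freedom, 90 pairs). On simulated data the edgeR test recovered 36, 43, 50 and 50 of 50 genes changed 1.5-, 2-, 4- and 8-fold among 13678 genes.

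Named genes were all members, Hsd17b12, up to 4 tested genes of each of 11 lists (144 genes) with the smallest adjusted p, and the 6 genes most like the Mup sum (mean log2 CPM not under 1). Alternatives were RLE and upper-quartile factors, library size alone, factors without member rows, no filter, CPM of at least 1 in 10 mice, DESeq2 1.42.0, limma 3.58.1 (voom with quality weights, and the trend method on log2 of RPKM plus 0.1 or plus 1), assigned fragments as a covariate, leaving out each mouse, Mup sums with pseudogene rows or central rows alone, and the TMM effective library as denominator of shares. Leave-one-out fits of the Mup20 share, and all alternatives of the central sum, were added after seeing the data.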

Additional observations from a re-analysis of the deposited data

Results flagged for a closer look

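In groups of 10 mice, the highest or lowest value was compared with its nearest neighbour as a share of the range, against Dixon's 95% critical value for 10 values. Chance alone flags about 1 in 20 groups, and 24 of 74 groups stood out, 23 of them through KO_391, the highest KO mouse. Its Mup share was 7.63% of assigned fragments (next KO mouse 2.40%), its Mup sum 73534 CPM (21007 CPM) and its central sum 56910 CPM (11396 CPM). The single rows in which KO_391 stood apart were Mup1 at 2688 CPM, Mup2 at 2473 CPM, Mup7 at 2933 CPM, Mup8 at 3303 CPM, Mup9 at 2296 CPM, Mup10 at 4397 CPM, Mup11 at 5465 CPM and Mup12 at 2870 CPM. The other central rows were Mup13 at 2033 CPM, Mup14 at 6065 CPM, Mup15 at 2941 CPM, Mup16 at 1629 CPM, Mup17 at 2671 CPM, Mup18 at 3044 CPM, Mup19 at 4997 CPM and Mup22 at 7106 CPM. Among diverged rows these were Mup5 at 2.12 CPM, Mup6 at 19.7 CPM and Mup21 at 155 CPM, and outside the Mup genes Rbp4 at 2616 CPM. These rows share fragments and are not independent. Mup3 and Mup20 of KO_391 were not among them, and its Hsd17b12 level lay within the range of the KO mice (44.0 to 51.3 CPM). In WT mice, Mup3 made up 24.2% of Mup fragments in WT_441, against 14.3% in the next mouse.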

How the results depend on the processing

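Across 43 results and 1312 comparisons with an alternative, 1277 kept direction and side of the threshold (counts within 1.5 times), 25 lost their call, 3 gained one, 4 counts moved and 3 directions reversed. Library size alone, without TMM factors, gave 9354 genes higher and 919 lower (3880 and 4163 with TMM factors) and 52 higher and 30 lower in the fixed lists (30 and 53). It also reversed the log2 fold changes of Mup20 to 0.017, Orm1 to 0.098 and Apom to 0.30, and ended the calls of Ambp and Mup6. By construction this scaling raises the log2 fold changes of most genes, by 0.47 in the median. Every alternative kept the Mup sum lower, from -3.28 for central rows alone to -2.25 with library size scaling, and the central sum lower, from -4.25 with limma-voom and quality weights to -2.86. Leaving out single mice gave -3.22 to -2.58 for the Mup sum, -4.18 to -3.15 for the central sum, 20 to 22 Mup rows lower, and a Mup20 share of Mup fragments 36.3 to 41.9 percentage points higher in KO. Calls lost or gained when mice were left out were those of Mup6, Orm3 and Mup20, and the cause was not tested. No paired analysis was possible because no label ties a KO mouse to a WT mouse. Without a filter on low counts Lcn12 and Apod were called lower and the calls of Mup6 and Orm3 were lost. Depth limits Apod, Lcn4, Lcn5, Lcn6 and Lcn8, and the split of fragments between central copies cannot be resolved from gene counts.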
